A study of Mus musculus with 12 samples.

Results

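The list of polyadenylation sites (PASs) that the authors deposited for mouse hippocampal slices holds 226 sites under 81 genes for proteins of the cytosolic ribosome. The members were chosen by symbol alone: Rpl or Rps, with or without a p, followed by a number and at most a short suffix, without the *Rps6k* kinase genes. They are 81 of the 16627 genes and 226 of the 56204 entries in the list, and 50 belong to the large and 31 to the small subunit. A PAS is the place where a nascent transcript is cleaved and a poly(A) tail is added. 3′READS sequences the fragment next to the tail, so that each PAS is placed at the end of a transcript.

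The libraries came from acute hippocampal slices of C57BL/6 wild-type mice, labelled as 3 months old, from which the dentate gyrus had been trimmed. In the LTP groups, slices received 50 µM forskolin for 5 min and then forskolin with 30 mM KCl and 10 mM calcium for a further 5 min, a chemical protocol for long-term potentiation. The control groups received the vehicle, DMSO at 0.2%, over 10 min. All were frozen 1 hr or 3 hr later, which gives 4 groups of 3 samples (12 libraries), and treated and control slices were taken from the same animals. The slices hold neurons, glia and vascular cells together. Per the methods, libraries were made only from samples in which *Arc*, an activity-induced gene, and the short isoform of *Homer1* had risen. The long *Homer1* isoform and *Hprt* had to be unaltered. The list gives 1 set of sites for all libraries. It holds more sites than the paper's supplement counts in any library above limits on read number and relative abundance. It can thus include rarely used sites. Its 12 columns of read counts carry names that match no label of a sample, so they were not used, and neither the depth behind a site nor a difference between LTP and control slices was analysed here. What follows describes where the transcripts of these genes end. The shares are counts over a gene list, given without a test.

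The cytosolic ribosome is built from ribosomal RNAs and many small basic proteins, made in matched amounts and assembled in the nucleolus. The small subunit holds the mRNA and the decoding site, and the large subunit holds the peptidyl transferase center, the exit tunnel and a flexible stalk that recruits translation factors. Most of the mRNAs begin with a C followed by a run of pyrimidines, the 5′ terminal oligopyrimidine (TOP) tract, through which the mTOR pathway sets their translation. In neurons, ribosomal protein mRNAs are also found in dendrites and axons. The list reports only their 3′ ends, and the TOP tract lies at the other end of the same mRNAs.

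The reference sequences show both ends. RefSeq promoter windows (GRCm38.p6, 250 bases before and 50 after the annotated start) were given for 62 of the 81 members. A gene was counted if the annotated start of any of its windows was a C followed by at least 4 C or T. This held for 13 of these 62 genes (21.0%, 95% Wilson interval 12.7 to 32.6%) and for 813 of 27025 genes (3.01%) with a window in the table. The start used in the slices was not measured and can differ from the annotated one. When a C with 5 or more C or T was allowed anywhere from 10 bases before to 20 bases after the start, on the transcribed strand, 37 of the 62 members (59.7%) and 24.9% of all genes held one. The tract was at the start itself in none of the 67 mitochondrial ribosomal protein genes or the 32 proteasome genes with a window, in 4 of 65 oxidative phosphorylation genes (6.15%) and in 2 of 42 initiation factor genes (4.76%). The starts below belong to members whose 3′ ends are described further on, with 10 bases before the start and 20 from it, and with the tract in capitals.
Rpl15 (chr14:18270967-18270996, minus strand): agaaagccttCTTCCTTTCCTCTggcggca
Rpl35 (chr2:39005112-39005141, minus strand): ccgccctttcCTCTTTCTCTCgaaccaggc
Rps6 (chr4:86857348-86857377, minus strand): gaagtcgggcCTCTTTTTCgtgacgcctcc
Rpl28 (chr7:4792955-4792984, plus strand): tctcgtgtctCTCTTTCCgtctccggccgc
Rps15a (chr7:118116128-118116157, minus strand): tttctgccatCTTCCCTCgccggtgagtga
Rplp2 (chr7:141447641-141447670, plus strand): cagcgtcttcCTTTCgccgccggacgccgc
The tract ran for 13 bases in *Rpl15* and for 5 bases in *Rplp2*, the shortest length that the search accepted.

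At the other end, the cleavage machinery reads the hexamer AATAAA in a transcript, a short way before the cleavage site, through the CPSF complex. A common variant of the signal is ATTAAA. Both are written here with T in place of U. In the GENCODE transcripts of GRCm38, AATAAA was present in the last 40 nt of 57 of the 81 members (70.4%) and of 61.6% of the 15926 listed genes with an annotated coding transcript. ATTAAA alone was present in 10 members (12.3%) and in 14.1% of all genes, and 14 members (17.3%) held neither, against 24.2%. The last 30 bases are shown for members with several PASs in the 3′-most exon and for a member of the stalk with a single one, with the hexamer in capitals.
Rplp0 (chr5:115563698-115563727, plus strand): tccaggtgtgaATTAAAggtgtatgtcatc
Rplp1 (chr9:61913284-61913313, minus strand): ttaagttggctAATAAAgagctgaacctgt
Rpl15 (chr14:18267823-18267852, minus strand): ctaaagtAATAAAtgtcttaaacaagtgga
Rpl21 (chr5:146837003-146837032, plus strand): gttagcATTAAAtgcactggagagcttcaa
Rps6 (chr4:86854660-86854689, minus strand): aacaAATAAAtaatgaccttgaatctttca
Rps15a (chr7:118104372-118104401, minus strand): tgaataaAATAAAgcattttttttaaaacc
The hexamer began 19 nt before the annotated end in both *Rplp0* and *Rplp1*, and 24 nt before it in *Rpl21*. These ends are those of the annotation, and the sequence at the sites of the list was not read. The positions of the list are those of mm9, the build named in the submitters' processing notes, and only 3 of the 131 exon3 PASs of members lay within 5000 nt of their gene on GRCm38. No coordinate of the list was set against that build.

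The members had a median of 2 PASs, the same as all listed genes, but fewer genes with many. One PAS was listed for 24 members (29.6%), 2 PASs for 23, and 5 or more for 12 (14.8%), against 23.7% of all genes with 5 or more. The mean was 2.79 PASs per gene for the members and 3.38 for all genes. Altogether 57 members (70.4%, 95% Wilson interval 59.7 to 79.2%) had 2 or more PASs, against 67.1% of all listed genes. The share was 57.9% of 76 genes for mitochondrial ribosomal proteins, 62.1% of 58 genes for translation initiation factors, 43.6% of 39 genes for proteasome subunits and 36.3% of 80 genes for nuclear subunits of oxidative phosphorylation, which are other housekeeping families. The intervals cover counting error only.

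**Figure D1:**
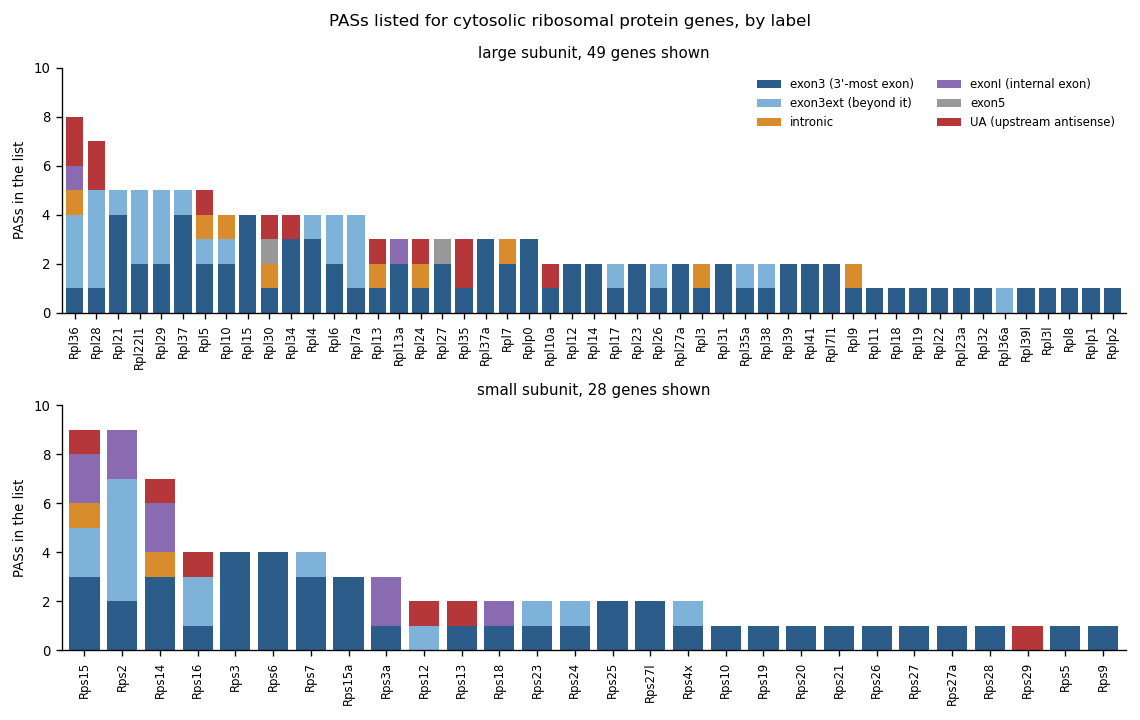
PASs in the list (vertical axis, number) for 49 large and 28 small subunit genes (horizontal axis), 4 further members not being shown, with the bar divided by region label. Rps15 and Rps2 reach 9 PASs, and Rps29 has a single PAS with the label UA.

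The genes with the most PASs were of both subunits. *Rps15* and *Rps2*, which encode proteins of the head and of the mRNA entry side of the small subunit, were each listed with 9 PASs. *Rpl36* had 8, and *Rpl28* and *Rps14* had 7. *Rps14* is the ribosomal protein gene known for its loss in a form of myelodysplastic syndrome. A further 6 members had 5 PASs each, among them *Rpl21*, *Rpl22l1*, *Rpl29*, *Rpl37* and *Rpl5*. The 24 genes with 1 PAS included *Rplp1* and *Rplp2* of the stalk, *Rpl11*, whose protein joins that of *Rpl5* in the particle that carries one of the ribosomal RNAs, *Rps27a*, which is translated as a fusion with ubiquitin, and *Rps19*, a gene mutated in Diamond-Blackfan anemia.

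Each site carries a region label. The labels are not defined in the paper's text, and were read from their names and from the order of the positions: exon3 for the 3′-most exon, exon3ext for sequence beyond it, intron for introns, exonI and exon5 for internal and first exons, and UA for upstream antisense sites on the opposite strand. Of the 226 entries of members, 131 (58.0%) were labelled exon3, 42 (18.6%) exon3ext, 25 (11.1%) UA, 13 (5.75%) intronic, 13 (5.75%) exonI and 2 (0.885%) exon5. Over the whole list the shares were 55.7% for exon3, 6.06% for exon3ext, 7.11% for UA, 27.0% for both intronic labels together and 1.27% for exonI. In 38 of the 81 members exon3 was the only label. A further 15 combined exon3 with exon3ext alone.

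**Figure D2:**
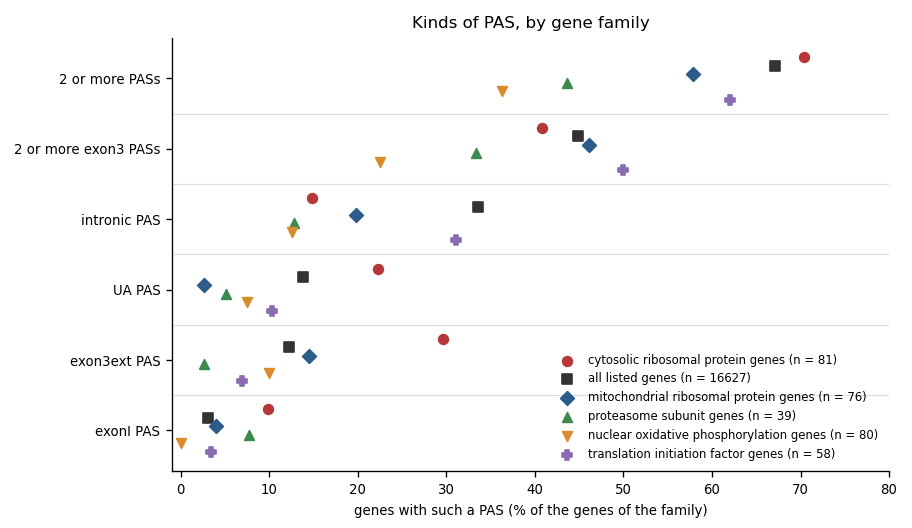
Share of genes (horizontal axis, % of the family) with a given kind of PAS, for the 81 cytosolic ribosomal protein genes, all 16627 listed genes and 4 comparator families. The cytosolic ribosomal protein genes lie at 14.8% for intronic PASs, below the 33.5% of all genes, and at 29.6% for exon3ext PASs, above the 12.2% of all genes and the values of the 4 families.

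Within the 3′-most exon, 78 members had at least 1 PAS. There were 45 members with 1 exon3 PAS, 19 with 2, 8 with 3 and 6 with 4. The 33 members with 2 or more were 40.7% (interval 30.7 to 51.6%), compared with 44.9% of all listed genes. The share was 46.1% for mitochondrial ribosomal protein genes and 22.5% for oxidative phosphorylation genes. Such sites can form tandem 3′UTRs of different length. *Rps2* is counted among the 33, although exonI PASs lie between its exon3 PASs. The share was 48.0% in the large subunit (24 of 50 genes, interval 34.8 to 61.5%) and 29.0% in the small subunit (9 of 31 genes, interval 16.1 to 46.6%), and these intervals overlap.

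The tandem sites of a member lay close together. The distance between the outermost exon3 PASs of a gene had a median of 228 nt over the 33 members, with quartiles of 67 and 493 nt. Over 7465 genes of the whole list the median was 817 nt, with quartiles of 258 and 1770 nt. Among genes of 10000 nt or less it was 228 nt for 31 members and 453.5 nt for 1190 genes, a comparison added after the values had been seen. Without that limit on gene length, the median was 463 nt for mitochondrial ribosomal protein genes, 276 nt for the proteasome, 208.5 nt for oxidative phosphorylation and 885 nt for initiation factors. In 18 of the 33 members (54.5%) the outermost sites were 250 nt or less apart, against 24.4% of all genes. A distance above 2000 nt was seen in 1 member (3.03%) and in 21.0% of all genes. Neighbouring exon3 PASs were a median of 118 nt apart in members (53 gaps) and 259 nt apart over all genes. Of the 53 gaps, 17 (32.1%) were 50 nt or less, against 12.9% of all gaps. Oxidative phosphorylation genes had closer sites still, with a median gap of 66.5 nt and 40.6% of 32 gaps at 50 nt or less, while the median gaps of the other families were 169 to 220.5 nt. Since the authors had clustered PASs within 24 nt of each other, gaps this short are close to the smallest that the list can hold.

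**Figure D3:**
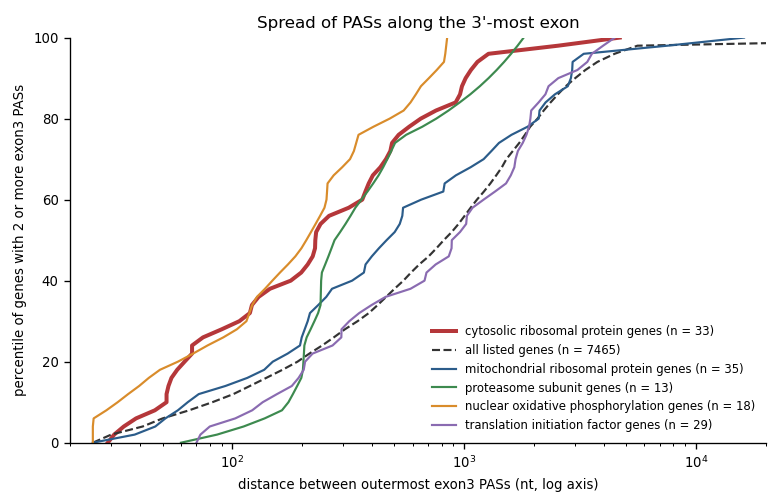
Percentile of genes (vertical axis) against the distance between their outermost exon3 PASs (horizontal axis, nt, log scale), for genes with 2 or more exon3 PASs on a single chromosome. The curve of the 33 cytosolic ribosomal protein genes crosses its median at 228 nt, left of the 817 nt of all genes.

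Annotated 3′UTRs of members were short. The median length in GRCm38 was 87 nt for the 81 members and 928 nt for the 15926 listed genes with a coding transcript, with 323 nt for the mitochondrial ribosomal protein genes. A 3′UTR of 100 nt or less was annotated in 46 members (56.8%) and in 6.22% of all genes. The genes themselves were a median of 3368 nt long, with a median of 5 exons, against 23974.5 nt and 9 exons. For each gene the principal coding transcript was used, and of several the one with the longest extent on the genome, introns included. It need not have the longest 3′UTR.

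In 18 of the 33 members with 2 or more exon3 PASs, the annotated 3′UTR was longer than the distance between the outermost ones by at most 100 nt. In 8 others it was shorter than that distance. The 18 were 72.0% (interval 52.4 to 85.7%) of the 25 members in which the distance did not exceed the 3′UTR length. The median excess over these 25 was 59 nt. Over all listed genes 10.1% lay within 100 nt, and the median excess was 477 nt. The comparison was made after these values had been seen. Short 3′UTRs alone give a small excess: in *Rpl10* the 3′UTR was 68 nt and the distance 29 nt. Among 3′UTRs above 200 nt, 15 of 20 members (75%) and 8.77% of all such genes were within 100 nt. That limit does not match the 3′UTR lengths of members to those of all genes, whose median without it was 928 nt. The 20 still included short 3′UTRs, such as the 222 nt of *Rpl4*, and a comparison at matched length was not made. This is a comparison of lengths across builds. It places the first exon3 PAS of these genes soon after the stop codon only if the last PAS is at the annotated end.

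The widest member was *Rps15a*, a small subunit gene on the minus strand of chromosome 7. Its 3 exon3 PASs stood at 125252583, 125252557 and 125247888 in the list, so that the first pair was 26 nt apart and the last site 4669 nt further on. The distance from first to last, 4695 nt, was 33 nt short of the annotated 3′UTR of 4728 nt. *Rps2* followed at 1332 nt, but its first exon3 PAS stood 1077 nt upstream of its first exonI PAS, so the distance crosses other exons of the gene. *Rpl15* had 4 exon3 PASs at 0, 213, 983 and 1125 nt from the first, with an annotated 3′UTR of 1188 nt. *Rpl21* also had 4, the last of them 1027 nt after the first, with a 3′UTR of 1079 nt. *Rps3*, whose protein lines the mRNA entry channel, had 4 sites over 970 nt, the first pair only 31 nt apart. *Rpl5* had 2 sites 950 nt apart and a 3′UTR of 1009 nt. In *Rpl27a* and *Rpl23* the outermost sites were 583 and 493 nt apart.

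*Rps6*, the small subunit protein that S6 kinases phosphorylate downstream of mTOR, had 4 PASs, all exon3, on the minus strand of chromosome 4. They stood at 86500482, 86500398, 86500328 and 86500002, that is at 0, 84, 154 and 480 nt. The annotated 3′UTR of the transcript used is 42 nt, far less than the 480 nt between its PASs. The distance exceeded the annotated 3′UTR in 8 of the 33 members with tandem sites (24.2%) and in 12.2% of all such genes. Besides *Rps6* and *Rps2* the excess was 31 nt or less in the other 6.

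At the narrow end, the 2 exon3 PASs of *Rpl10*, an X-linked gene of the large subunit, were 29 nt apart. Those of *Rpl39*, which encodes a very small protein at the exit tunnel, were 32 nt apart, those of *Rpl7* were 39 nt apart, and those of *Rpl22l1* and *Rps27l* were 52 nt apart. *Rps15* had 3 exon3 PASs over 54 nt in steps of 27 nt, and *Rps14* had 3 over 59 nt. *Rpl37* combined both patterns, with 3 sites in steps of 26 nt and the last of its 4 sites 326 nt further on.

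The 3 stalk genes were listed with 1 or 3 sites each. *Rplp0*, the base of the stalk, had 3 exon3 PASs on chromosome 5 at 116013528, 116013644 and 116013738, which are 116 and 94 nt apart and span 210 nt. Its annotated 3′UTR is 283 nt. *Rplp1* and *Rplp2*, the acidic proteins that bind to it and recruit the elongation factors, had 1 exon3 PAS each. None of the 3 had an intronic, antisense or extended site.

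**Figure D4:**
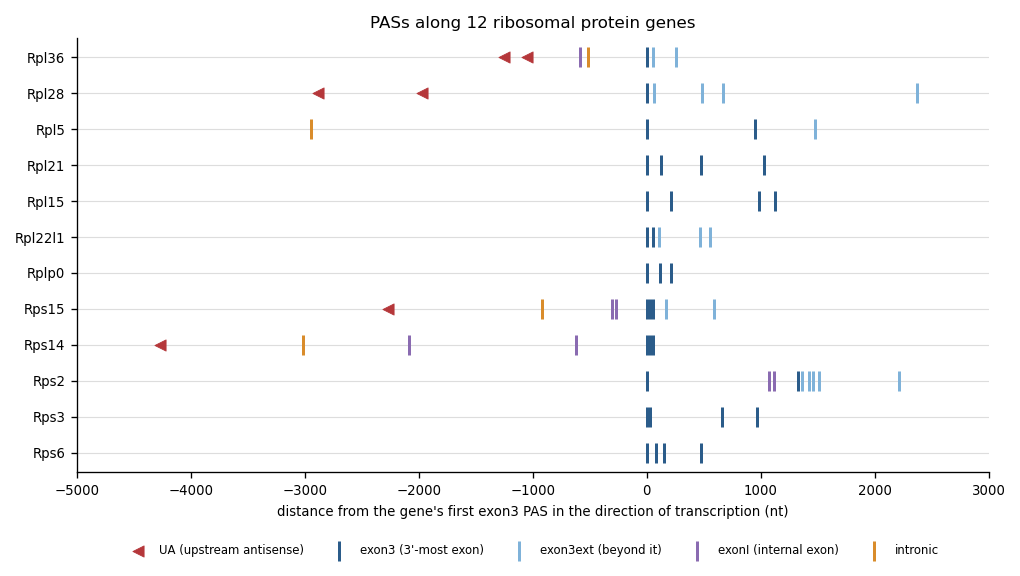
PASs along 12 members, placed by their distance from the first exon3 PAS of the gene in the direction of transcription (horizontal axis, nt), with marks coloured by label and triangles for sites on the opposite strand. Rps6 shows 4 exon3 sites over 480 nt and Rpl36 2 UA sites. A UA site of Rpl5 at -10229 nt and exon3ext sites of Rpl36 at 7374 nt and of Rpl21 at 3593 nt lie outside the axis.

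PASs beyond the 3′-most exon were listed for 24 members (29.6%, interval 20.8 to 40.3%) and for 12.2% of all genes. The shares were 14.5% for mitochondrial ribosomal proteins, 10.0% for oxidative phosphorylation, 6.90% for initiation factors and 2.56% for proteasome subunits. Among genes of 10000 nt or less the shares were 31.2% of 77 members and 11.1% of 3996 genes. The 40 such sites of members with an exon3 PAS lay a median of 336.5 nt after the last one, against 1159 nt over all genes, and 11 of them (27.5%) were within 100 nt, against 13.2%. Oxidative phosphorylation genes were similar, with a median of 244 nt over 8 sites and 25% within 100 nt. The medians were 503.5 nt for 2 proteasome sites, 1314 nt for 16 mitochondrial ribosomal protein sites and 2313 nt for 7 initiation factor sites. The nearest was in *Rps7*, at 25 nt, and the farthest in *Rpl36*, at 7374 nt. *Rps2* had 5 exon3ext sites, at 30, 97, 131, 179 and 879 nt. *Rpl28* had 4, at 61, 490, 671 and 2372 nt. *Rpl29* had 3, at 1087, 1826 and 2526 nt. *Rpl7a* had 3, at 57, 125 and 182 nt. A site a few nt beyond the last exon3 PAS and a far more distant site carry the same label, and with no read counts the 2 kinds were not weighed by use.

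No exon3 PAS was listed for 3 members. *Rpl36a* was listed with 1 exon3ext site. *Rps12* had 1 exon3ext and 1 UA site. *Rps29* was listed only with a UA site, so that no end of its mRNA is in the list, although the annotated transcript ends with AATAAA 23 nt before its end.

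Intronic PASs were few. They were listed for 12 members (14.8%, interval 8.68 to 24.1%) and for 33.5% of all genes, 31.0% of initiation factor genes, 19.7% of mitochondrial ribosomal protein genes, 12.8% of proteasome genes and 12.5% of oxidative phosphorylation genes. All 13 intronic sites of members carried the label intron_Comp, read as a composite terminal exon, in which an exon runs on into the intron. None carried intron_Skip, a label found for 967 of all genes (5.82%). The members are short genes. Among genes of 10000 nt or less, intronic PASs were listed for 10 of 77 members (13%) and for 490 of 3996 genes (12.3%), a comparison added after the values had been seen.

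The 13 intronic sites lay a median of 962 nt before the first exon3 PAS of their gene, against 19973 nt over all genes, and 7 of them (53.8%) lay within 1000 nt of it, against 2.82%. The length of a gene bounds this distance, and the median gene length was 3368 nt for members and 23974.5 nt for all genes. The distances were not compared among genes of similar length. The nearest was in *Rpl9*, at 122 nt. *Rpl7*, *Rpl13* and *Rpl36* had one at 389, 428 and 514 nt. The farthest was in *Rpl3*, at 3479 nt, where the protein encoded is an essential part of the peptidyl transferase center. *Rpl5*, *Rps14*, *Rpl30*, *Rpl10*, *Rpl24* and *Rps15* had one each, between 918 nt in *Rps15* and 3020 nt in *Rps14*.

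Many introns of these genes carry small nucleolar RNAs (snoRNAs), which guide the modification of ribosomal RNA and are released from the spliced intron. In GENCODE, 29 members (35.8%, interval 26.2 to 46.7%) held at least 1 snoRNA in an intron of the transcript used, 55 snoRNAs in all, against 1.38% of all listed genes. *Rpl4* held 5 and *Rpl13a* held 4. An intronic PAS was listed for 5 of these 29 hosts and for 7 of the other 52 members. PASs in internal exons were listed for 8 members (9.88%, interval 5.09 to 18.3%) and for 3.08% of all genes. The shares were 7.69% for the proteasome, 3.95% for mitochondrial ribosomal proteins, 3.45% for initiation factors and 0% for oxidative phosphorylation. Among members, such PASs were found in 6 of the 31 small subunit genes and in 2 of the 50 large subunit genes. The intervals of these 2 shares, 9.19 to 36.3% and 1.10 to 13.5%, overlap. *Rps3a* had 2 exonI sites 31 nt apart, 3403 nt and more before its exon3 PAS. *Rps14*, *Rps15* and *Rps2* had 2 each as well.

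Upstream antisense transcripts arise where RNA polymerase II starts in both directions from a promoter, and are as a rule ended early and degraded. UA PASs were listed for 18 members (22.2%, interval 14.5 to 32.4%) and for 13.8% of all genes. The shares of the other families were 10.3% for initiation factors, 7.5% for oxidative phosphorylation, 5.13% for the proteasome and 2.63% for mitochondrial ribosomal proteins. Among genes of 10000 nt or less the shares were 22.1% for members and 16.4% for all genes. The 25 UA sites all lay on the strand opposite to their gene. One UA site was listed for 14 members, 2 sites for 3 members (*Rpl28*, *Rpl35* and *Rpl36*) and 5 sites for 1 member. An intronic PAS was listed for 8 of the 18 members with a UA site, and 22 members had one or the other.

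The 24 UA sites in genes with a PAS on their own strand lay a median of 2666.5 nt before the first of these, against 8032 nt over all genes. This distance spans the part of the gene before that PAS together with the antisense transcript. It was not compared among genes of similar length. The nearest were those of *Rpl36*, at 467 and 669 nt, and of *Rpl30*, at 889 nt. In *Rps14* and *Rps15* the distances were 1249 and 1354 nt. The farthest was in *Rpl5*, at 7286 nt, and the next were in *Rpl35* at 4601 nt and *Rpl34* at 4441 nt. In *Rpl24* it was 3801 nt.

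**Figure D5:**
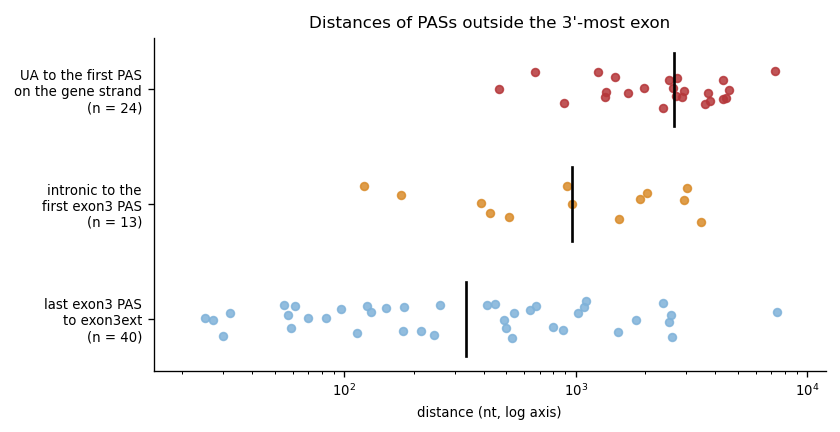
Distances (horizontal axis, nt, log scale) of 24 UA, 13 intronic and 40 exon3ext PASs of members to the PAS named at the left, with 1 point for each PAS and a bar at the median. The medians are 2666.5, 962 and 336.5 nt.

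The 81 genes were spread over 19 chromosomes, 45 on the plus and 36 on the minus strand. Chromosome 7 held 14 of them, chromosome 17 held 8 and chromosome 11 held 7, while none was on chromosome 19. On chromosome 17, the last listed PAS of *Rps2* and the PAS of *Rpl3l* were 13337 nt apart.

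Several members come with a second gene of like sequence. *Rpl3l*, the striated muscle form of *Rpl3*, was listed with 1 PAS and *Rpl3* with 2. *Rpl22l1* had 5 PASs, 2 exon3 and 3 exon3ext, while its parent *Rpl22* had 1. *Rpl7l1* had 2 exon3 PASs 398 nt apart and *Rpl7* had 2 exon3 PASs 39 nt apart and an intronic one. *Rps27l*, induced in the DNA damage response, had 2 exon3 PASs and *Rps27* had 1. *Rpl39l* had 1 PAS and *Rpl39* had 2. The only other protein-coding symbol of the same pattern in GENCODE, *Rpl10l*, is not among the genes of the list used here.

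Some sites were shared with another gene symbol. In 6 members (7.41%, against 1.67% of all genes) 1 or more PASs were listed under a second gene symbol at the same position. All 4 sites of *Rpl34* were also listed under the pseudogene symbol *Rpl34-ps1*, all 4 of *Rpl30* under *Gm12191*, both of *Rpl26* under *Gm15772*, both of *Rps23* under *Gm15450* and the 1 of *Rps27* under *Gm9846*. The sites of these 6 genes cannot be assigned to one symbol from the list. Reads of near-identical processed copies elsewhere in the genome can also be split or lost in mapping, which the list does not show for any member.

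Genes that act with the members but carry other symbols were counted for reference. Of 7 further symbols for proteins of the cytosolic ribosome, 6 were listed, of which *Rpl41* is also a member. *Rpsa*, of the small subunit, had 5 PASs, 4 of them exon3 over 326 nt. *Fau* had 2, and *Gnb2l1* (*Rack1*) and *Rpl36al* had 1 each. All 14 genes of a list of other TOP mRNAs were in the list, with a median of 2 PASs, and 6 of them had 2 or more exon3 PASs over a median of 379.5 nt. *Eef1a1*, the elongation factor that delivers aminoacyl-tRNA, had 6 PASs, with 3 exon3 sites over 476 nt, and *Eef2*, the translocation factor, had 2 exon3 PASs 143 nt apart. An intronic PAS was listed for 5 of the 14 and a UA PAS for 1. The 10 *Rps6k* genes, kinases that share the letters of the symbol, had a median of 4 PASs, and 6 of the 10 had an intronic one.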

How the data were processed

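3′READS libraries were made by the authors from 1 µg of RNA for each of 12 samples. Per the labels and the methods, reads were mapped with Bowtie2, reads with at least 2 unaligned Ts identified PASs, and PASs within 24 nt were clustered. The processing notes name mm9. The methods take introns from RefSeq, and a supplement counts genic reads at PASs above limits on read number and relative abundance. The deposited list holds 55813 distinct PASs in 16627 genes, more of both than that supplement counts in any library above those limits. Counts and shares here thus cover a wider set of sites than the paper's own. How the sites of the list were selected, and the version of Bowtie2, are not given in the sources used here. The deposited table gives, for each PAS, a symbol, strand, region label and genome position in nt (the unit used here, other than any count). Its 12 columns of read counts were not used, since their names match no sample label. Depth, replicate error and tests between groups are therefore not given.

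The members and the lists beside them were chosen with earlier results of these data known. Sites were counted and distances taken in Python 3.11.15 (numpy 2.4.6, pandas 2.3.3), with 95% Wilson intervals from scipy 1.17.1 and figures from matplotlib 3.10.9. The scripts were first tested on simulated data. Lengths, snoRNAs and transcript ends came from GENCODE (GRCm38), with all 81 members matched, 1 of them under another symbol. Promoters came from RefSeq (GRCm38.p6). Protein sequences were not analysed here. Genes were named by a rule: the stalk and paralogue lists, the 10 members with the most PASs, the 10 widest and 5 narrowest exon3 distances, members with no exon3 PAS or shared sites, the 5 nearest and 5 farthest UA sites and close neighbours. A few of these genes are not reported here by name, and the counts include them. Others named were chosen after their values were seen. Alternatives left out UA, shared or paralogue entries, merged PASs within 50 nt, or counted exon3ext with exon3.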

Additional observations from a re-analysis of the deposited data

How the results depend on the processing

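Of 37 alternative values, 34 stayed within the 95% interval of the value reported. Some of the 34 could not move. Counting exon3ext as exon3 cannot alter the number of PASs per gene or the intronic and UA shares. Leaving out UA sites cannot alter the distances between exon3 PASs. The share of members with 2 or more exon3 PASs was 40.7%, and 54.3% with exon3ext sites taken as exon3. The share of entries labelled exon3 moved from 58.0 to 65.2% without UA sites and to 76.6% with exon3ext added, both by construction. The median distance between outermost exon3 PASs, 228 nt, stayed within its interval of 118 to 447 nt but was 360 nt after merging PASs within 50 nt and 422.5 nt with exon3ext. Leaving out UA sites removes *Rps29*, and the UA share then has no value. Restricting the members to genes of 10000 nt or less was chosen after seeing the data. No paired analysis was possible because the list holds 1 set of sites for every library, its columns carry no replicate number that matches the labels, and no result comes from a test. Without read counts, a PAS used in every transcript and one used rarely count alike.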
